A study of Homo sapiens with 10 samples.

Results

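The genes described here are 34 human imprinted genes, taken as a named list and found by gene symbol in a table of read counts. All 34 were present among the 62709 entries with values, 22 had a read in at least 1 library, and 15 had enough reads to be tested among 15832 tested genes. RNA came from H441, an established human lung adenocarcinoma line. Per the labels, the groups are untreated wild type (WT, 3 libraries), a knockout of TET1 made by CRISPR-Cas9 in that line (KO, 3 libraries), and transient overexpression of full-length human TET1 from a plasmid (OE, 2 libraries). A further 2 libraries were also labelled untreated wild type but carry Lipo in their titles, without further explanation, and they served as the control of OE. The labels do not say whether KO is 1 clone or a pool, which promoter drives TET1 on the plasmid, or whether libraries of a group are separate cultures, so p-values measure only the spread between these libraries.

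An imprinted gene is read mainly from the copy inherited from a single parent, and marks such as DNA methylation laid down in the germ line set the copies apart. Many imprinted genes set fetal and placental growth: IGF2 promotes it, and IGF2R, H19, CDKN1C, PHLDA2 and GRB10 restrain it. TET1 oxidises 5-methylcytosine, a first step in removing DNA methylation, and TET enzymes take part in erasing imprints in germ cells. The counts hold no allele information, so they show how much RNA a gene gave and not from which copy, and DNA methylation was not analysed here. In a bulk sample, fewer cells that use a gene and less RNA per cell cannot be told apart.

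TET1 was near 0 in every library without the plasmid. It had 2, 7 and 0 reads in WT, 4, 0 and 8 in KO, and 0 and 1 in Lipo, against 17883 and 20805 in OE. The high counts in OE match its label, whereas RNA counts cannot check the knockout, and the KO group rests on its label. Libraries held 20994462 to 25981097 counts, and no pair within a group differed by as little as sampling noise. The difference, as chi-square per degree of freedom, was 6.17 for WT 2 with WT 3, 5.98 for the Lipo pair and 4.79 for the OE pair. It was 40.6 and 43.9 for the pairs with WT 1, and 37.8 to 62.1 for the KO pairs. Spread was thus unequal between groups. Of 17 lung epithelial markers 13 reached 1 CPM (a TMM-scaled count relative to library size) in all 10 libraries. SFTPA1 and SFTPA2 led, and SCGB1A1 had no reads. Of the 14 tested, 3 were called lower in KO than in WT and 4 lower in Lipo than in WT. In OE compared with Lipo 1 was called higher and 3 lower. Over all tested genes 12.6% were called in KO, 3.7% in Lipo and 12.3% in OE. Of 9 fibroblast markers 2 reached 1 CPM in all libraries. COL1A1, LUM and COL3A1 were the highest, and DCN, PDGFRA, PDGFRB, POSTN and THY1 had no reads. The summed level of the list was 177 to 289 CPM in WT, 70.9 to 77.7 in KO, 170 to 183 in Lipo and 343 to 351 in OE. Both tested fibroblast markers were called lower in KO than in WT and higher in OE than in Lipo. The 6 endothelial markers, led by KDR, summed to 115 to 119 CPM in WT and 91.9 to 109 in KO. They summed to 83.3 to 87.1 in Lipo and 90.2 to 102 in OE, and 0 of 5 tested were called in KO, OE or Lipo. Immune markers summed to 1.36 to 2.1 CPM in WT, 2.34 to 2.62 in KO, 2.37 to 2.64 in Lipo and 4.92 to 7.54 in OE, where 1 of 3 tested was called higher than in Lipo. None of 10 placental trophoblast markers reached 1 CPM in all libraries, CGA, CGB5, CSH1 and ERVW-1 having no reads; this list summed to 7.71 to 15.4 CPM in WT, 1.04 to 1.99 in KO, 5.16 to 6.56 in Lipo and 5.18 to 6.81 in OE, and 2 of 3 tested were called lower in KO. Mitochondrially encoded genes took 5.47 to 6.15% of counts in WT, 5.44 to 7.25% in KO, 8.04 to 8.72% in Lipo and 4.74 to 4.89% in OE, and the part of these differences in the results below was not tested.

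The promoters of 21 of the 34 genes were matched by symbol in RefSeq (GRCh38.p14), as 48 windows of 300 bases, 250 before and 50 after a start. Their CpG count ran from 2 to 50 with a median of 18, against a median of 14 over all 35116 windows. The letters TGCCGC are the core that the imprint-keeping zinc finger protein ZFP57 reads when methylated. They were present on at least 1 strand in 22 windows (45.8%) from 14 genes, and in 16.7% of all windows. Overlapping starts of 1 gene share bases, and a match is not a site. TGCCGC itself holds a CpG, and windows of equal CpG count were not compared, so these shares are not read as enrichment. The sequences below are shown because GRB10 passed the test in KO and IGF2R was closest to the threshold in OE. SNRPN and SNURF are included because they share a window and exon bases, 69.3% of those of SNURF and 23.8% of those of SNRPN. CpG dinucleotides are in capitals and each sequence runs 5′ to 3′ along the gene's strand.
GRB10, first start (minus strand, chr7:50793404-50793703): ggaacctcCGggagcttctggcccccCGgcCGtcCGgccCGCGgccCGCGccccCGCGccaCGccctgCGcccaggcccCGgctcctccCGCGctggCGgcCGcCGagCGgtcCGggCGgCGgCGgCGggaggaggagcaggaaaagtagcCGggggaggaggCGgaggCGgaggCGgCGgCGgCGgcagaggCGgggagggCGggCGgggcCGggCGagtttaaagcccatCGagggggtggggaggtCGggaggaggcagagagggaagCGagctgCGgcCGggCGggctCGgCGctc
GRB10, a start inside the gene (minus strand, chr7:50732304-50732603): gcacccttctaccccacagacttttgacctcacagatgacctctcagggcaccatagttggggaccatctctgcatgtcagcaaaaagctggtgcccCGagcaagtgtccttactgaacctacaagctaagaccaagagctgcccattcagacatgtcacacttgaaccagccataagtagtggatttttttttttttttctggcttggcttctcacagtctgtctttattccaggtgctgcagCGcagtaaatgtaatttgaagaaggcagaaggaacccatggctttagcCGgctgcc
SNRPN and SNURF, shared start (plus strand, chr15:24954737-24955036): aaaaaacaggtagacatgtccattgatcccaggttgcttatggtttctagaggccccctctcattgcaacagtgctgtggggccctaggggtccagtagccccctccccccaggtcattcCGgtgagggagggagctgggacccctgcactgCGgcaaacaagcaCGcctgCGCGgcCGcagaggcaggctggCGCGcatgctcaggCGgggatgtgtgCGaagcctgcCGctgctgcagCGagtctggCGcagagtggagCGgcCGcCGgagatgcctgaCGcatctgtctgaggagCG
IGF2R (plus strand, chr6:159968832-159969131): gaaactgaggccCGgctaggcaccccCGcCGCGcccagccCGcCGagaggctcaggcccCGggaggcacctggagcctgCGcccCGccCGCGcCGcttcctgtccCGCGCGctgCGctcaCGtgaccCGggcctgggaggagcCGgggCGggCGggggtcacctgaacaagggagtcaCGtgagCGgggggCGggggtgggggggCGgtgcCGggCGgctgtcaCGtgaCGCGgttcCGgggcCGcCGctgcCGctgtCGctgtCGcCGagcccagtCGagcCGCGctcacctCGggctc
GRB10 had 5 windows. The first holds 44 CpG and the internal one printed here 3, the fewest, while those not printed hold 49, 24 and 4. A gene-level count cannot tell transcripts from these starts apart. The window of SNRPN and SNURF holds 18 CpG and 2 copies of TGCCGC, counting both strands. IGF2R holds 41 CpG in its window and 1 copy.

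A gene was called on in a group when each of its libraries reached 1 CPM after scaling. In WT 11 of the 34 genes were on, 9 had reads below that level and 14 had none. In KO these numbers were 12, 7 and 15, in Lipo 11, 5 and 18, and in OE 11, 6 and 17. SNRPN, PEG10, SGCE, PPP1R9A, MEST, GRB10, BLCAP, GNAS, IGF2R and INPP5F, 10 genes in all, were on in all 4 groups. By the copy each gene is usually read from, these were 4 of 21 paternally and 1 of 8 maternally expressed genes. The rest were 5 of the 5 genes whose imprint is limited to some transcripts or tissues. The maternally expressed genes include H19, KCNQ1, CDKN1C, PHLDA2 and SLC22A18 at 11p15, where, as described below, 0 cannot be read as silence. This split is therefore not read as a difference between maternally and paternally expressed genes. NAP1L5, L3MBTL1, SLC22A18 and SNURF, with 401, 351, 169 and 107 reads, were read in every library at levels on both sides of 1 CPM, between the genes on throughout and those near 0, as the plot of CPM by library shows.

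**Figure D1:**
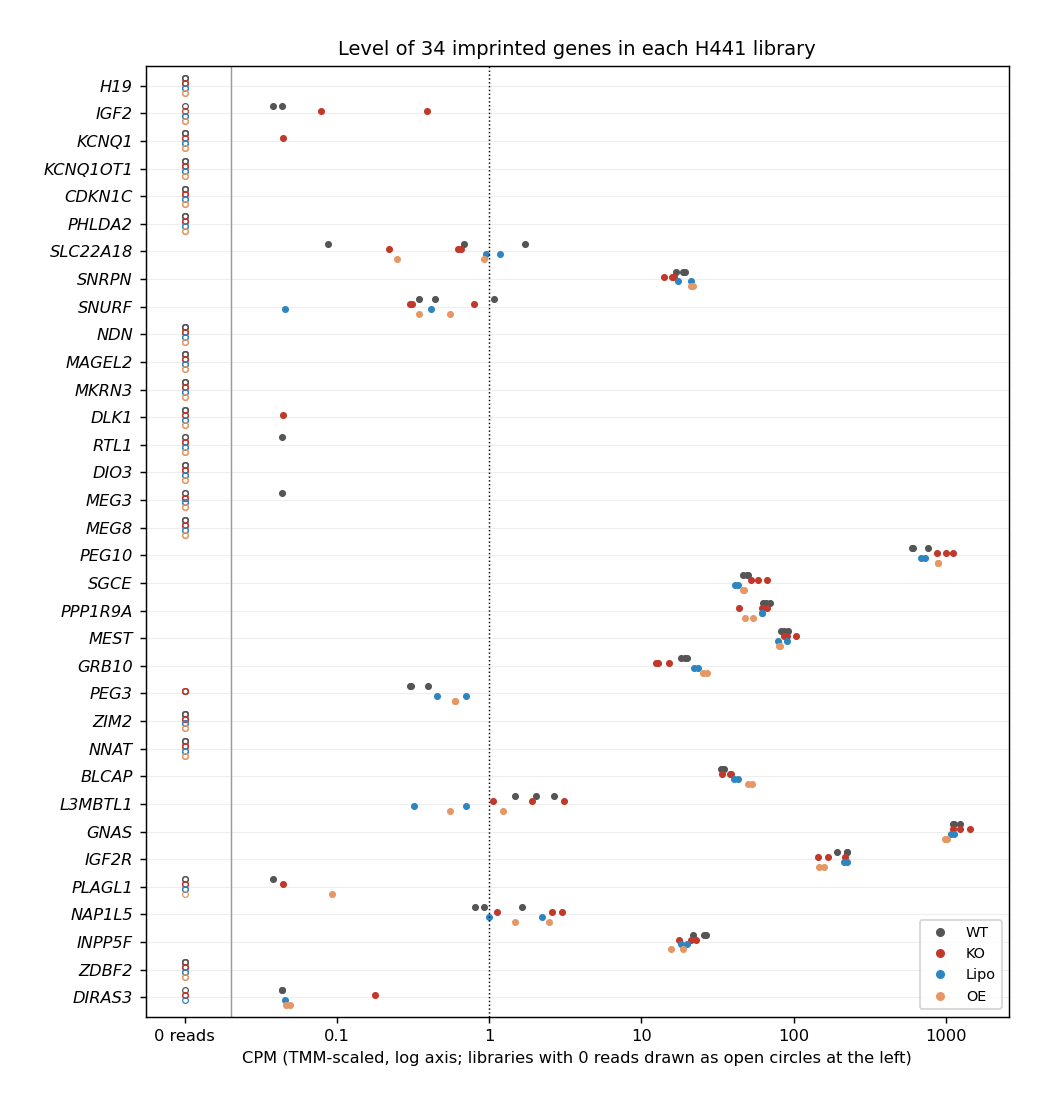
Level of each of the 34 imprinted genes in CPM (log axis), with 1 point per library coloured by group and libraries with 0 reads as open circles at the left; the dotted line marks 1 CPM. PEG10 and GNAS lie highest, and 12 genes have open circles alone.

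Per kilobase of annotated exon, PEG10 stood at 98.3 ± 13.8 CPM per kb in WT (SD, n = 3) and GNAS at 87.2 ± 5.39, and these 2 did not differ beyond their spread. PEG10 is a gag-pol gene derived from a retrotransposon and needed for the placenta, and GNAS encodes the stimulatory G protein subunit that couples receptors to adenylyl cyclase. MEST, which encodes an enzyme of the hydrolase fold, followed at 18.1 ± 1.02 CPM per kb. The next was IGF2R, the receptor that carries IGF2 and mannose-6-phosphate enzymes to lysosomes, at 11.9 ± 1.01 CPM per kb. Then came PPP1R9A, the actin-binding neurabin, at 5.93 ± 0.300 CPM per kb and SNRPN, a spliceosomal Sm protein gene, at 5.35 ± 0.395, whose ranges of 1 SD overlapped. BLCAP stood at 4.34 ± 0.103 CPM per kb, the phosphoinositide phosphatase gene INPP5F at 3.23 ± 0.331, the sarcoglycan gene SGCE at 2.33 ± 0.0814 and the receptor adaptor gene GRB10 at 1.95 ± 0.0966, each apart from its neighbours by more than 1 SD. The 5 other tested genes were lower: NAP1L5 at 0.586 ± 0.238 CPM per kb and SNURF at 0.529 ± 0.342 overlapped, as did SLC22A18 at 0.156 ± 0.154 and L3MBTL1 at 0.132 ± 0.0387, and PEG3 was at 0.0342 ± 0.00533. The length is the union of all annotated exons, which lowers this measure for genes with many long transcripts.

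KO was compared with WT, and TET1 RNA was near 0 in both groups. Whether the differences between them come from loss of TET1 was not tested. In this comparison 3 of the 15 tested imprinted genes passed edgeR's quasi-likelihood test at an adjusted p under 0.05, 1 higher and 2 lower. Of all 15832 genes 12.6% passed, and a count this small is not read as a property of the list. PEG10 rose, and PEG3 and GRB10 fell. The median log2 change of the 15 genes was -0.20, against 0.0034 over all tested genes, and 6 of the 15 were above 0. The groups did not overlap for 5 of the 15, and for 27.6% of all tested genes.

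PEG10 (ENSG00000242265, chr7:94656325-94669695, GRCh38, plus strand) gave 764, 607 and 602 CPM in the WT libraries and 1006, 1116 and 875 CPM in the KO libraries. All 3 KO libraries lay above all 3 WT libraries. The mean went from 658 ± 92.1 to 999 ± 121 CPM (SD, n = 3 each), a fitted log2 change of 0.60 (SE 0.13, edgeR adjusted p = 0.00527), or 1.52-fold. PEG10 passed under all 20 alternative settings, with a log2 change between 0.52 and 0.72 and an adjusted p between 0.000167 and 0.0385. In Lipo it stood at 682 and 729 CPM, and in OE at 889 and 883.

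SGCE, the epsilon-sarcoglycan gene altered in myoclonus dystonia, starts head to head with PEG10 and shares 219 exon bases with it on the opposite strand, which is 3.3% of PEG10's exons and 1.0% of its own. Its WT libraries held 49.5, 49.9 and 46.8 CPM and its KO libraries 67.3, 52.8 and 58.3 CPM. The groups did not overlap, but the log2 change of 0.29 (SE 0.12, adjusted p = 0.147) missed the threshold. With the 5 wild-type-labelled libraries as control it passed, at 0.37 (adjusted p = 0.0278). PPP1R9A, 238 kb beyond PEG10, had a log2 change of -0.20 (adjusted p = 0.429) with overlapping groups, and CASD1, 99 kb away on the SGCE side, one of -0.12 (adjusted p = 0.633). None of the 3 tested genes within 500 kb of PEG10 passed.

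PEG3 (ENSG00000198300, chr19:56810077-56840728, minus strand), a Krüppel-type zinc finger gene, had few reads: 7, 8 and 9 in WT, 0, 0 and 0 in KO, 17 and 10 in Lipo, and 12 and 13 in OE. KO was the only one of the 4 groups without a read. The 24 WT reads corresponded to 0.333 CPM over the group (exact 95% Poisson interval 0.213 to 0.495, counting error only), and 0 KO reads allow up to 0.0420 CPM, the level of 3 counts over the group. The mean of PEG3 was 7.95-fold above that level in WT, 13.8-fold in Lipo and 14.1-fold in OE, and KO with WT passed (edgeR adjusted p = 0.00745). These folds leave out the error of the group mean, so they are not minimum folds. By the same Poisson interval the lower limit of WT was 0.213 CPM and the upper limit of KO 0.0517 CPM. PEG3 passed in all 17 alternatives that tested it, with an adjusted p between 0.00198 and 0.0249. The other 3, a stricter filter on low counts and the 2 fits limited to WT and KO, left it out. It therefore passed the main filter only through its reads in Lipo and OE, and its levels in those groups are not separate support. Its exons share 1264 bases with ZIM2 on the same strand, 41.2% of the exons of ZIM2, which had 0 reads in all libraries.

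Genes around PEG3 are mostly zinc finger genes. Of 20 tested within 500 kb 1 passed in KO, ENSG00000268205, which has no symbol, at a log2 change of 0.74 (adjusted p = 0.0337). ZNF835, 138 kb away, had a log2 change of 0.42 (adjusted p = 0.33), ZNF71, 184 kb away, one of -0.16 (adjusted p = 0.699), and ZNF264, itself listed as imprinted, one of 0.16 (adjusted p = 0.587). None of the 20 was lower in KO by this test.

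GRB10 (ENSG00000106070, chr7:50590063-50793462, minus strand) encodes an adaptor that binds the insulin and IGF1 receptors and restrains their signal. It gave 18.1, 19.2 and 20.02 CPM in WT and 12.9, 15.1 and 12.5 CPM in KO. Every KO library was below every WT library. The mean fell from 19.1 ± 0.946 to 13.5 ± 1.42 CPM (SD, n = 3 each), at a log2 change of -0.50 (SE 0.14, edgeR adjusted p = 0.0307), or 1.42-fold lower. This call was near the threshold and was lost in 10 of 20 alternatives, all with the same direction: the adjusted p was 0.106 without WT 2, 0.111 without WT 3, 0.0532 without KO 1, 0.0638 without KO 3, 0.0564 and 0.0555 when Lipo 2 or Lipo 3 was left out, 0.058 and 0.0579 when OE 1 or OE 2 was, 0.0571 with no filter and 0.105 with WT and KO fitted alone. Neither of the 2 tested neighbours within 500 kb passed: FIGNL1, 48 kb away, had a log2 change of 0.11 (adjusted p = 0.721) and COBL, 223 kb away, one of -0.28 (adjusted p = 0.237).

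**Figure D2:**
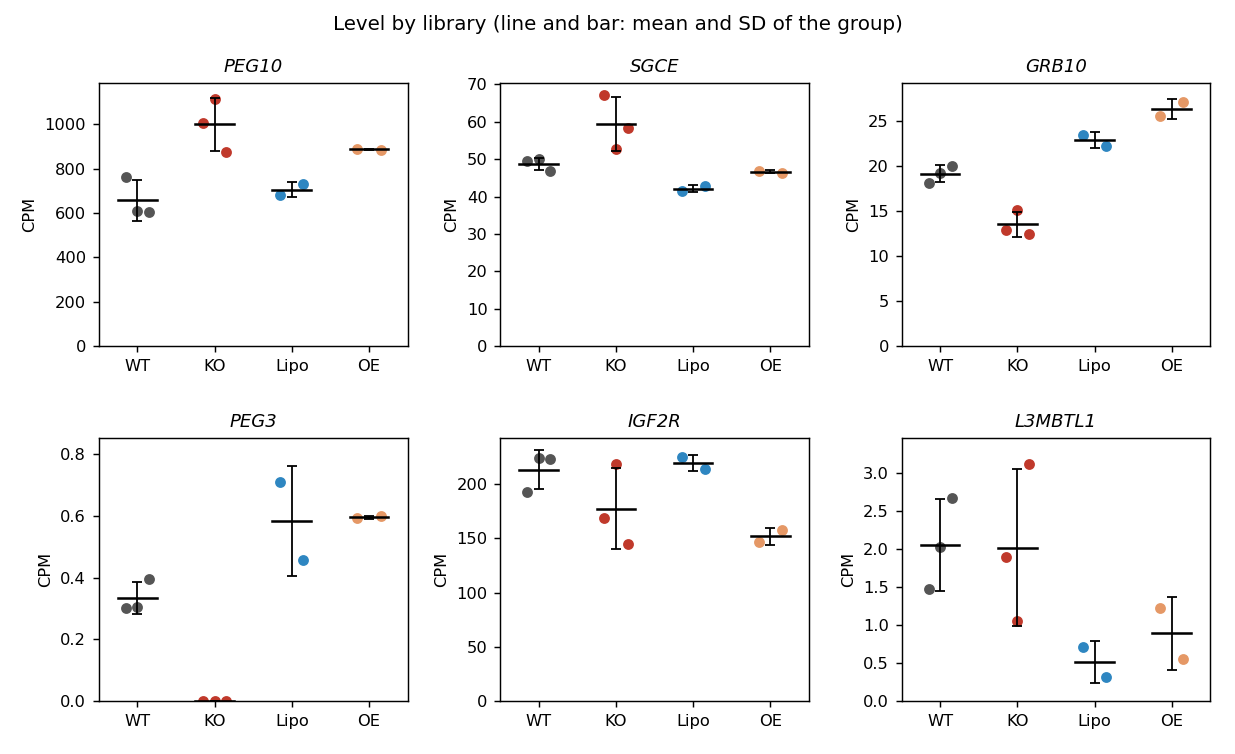
CPM of PEG10, SGCE, GRB10, PEG3, IGF2R and L3MBTL1 by group, with 1 point per library and the group mean and SD as line and bar; each vertical axis starts at 0. KO lies above WT for PEG10 and below it for GRB10, and PEG3 has 0 reads in KO.

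The other 12 tested genes did not pass in KO. NAP1L5, a histone chaperone family gene, had a log2 change of 1.00 (SE 0.45, adjusted p = 0.171), with 1.65, 0.802 and 0.920 CPM in WT and 2.60, 3.01 and 1.13 CPM in KO, so the groups overlapped. SNRPN lay at 19.4, 18.7 and 16.8 CPM in WT and 14.1, 16.3 and 15.9 CPM in KO, without overlap, at a log2 change of -0.25 (adjusted p = 0.311). IGF2R had a log2 change of -0.27 (adjusted p = 0.243) and INPP5F one of -0.26 (adjusted p = 0.3), both with overlapping groups. MEST, GNAS and BLCAP had log2 changes of 0.10, 0.12 and 0.12, with 95% intervals of -0.15 to 0.35, -0.12 to 0.36 and -0.14 to 0.37. L3MBTL1, SNURF and SLC22A18, with 351, 107 and 169 reads over all libraries, had the wide intervals of -0.99 to 0.93, -1.95 to 1.15 and -2.37 to 0.94. SNURF shares 69.3% of its exon bases with SNRPN on the same strand, so its low count depends on how shared reads were assigned.

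**Figure D3:**
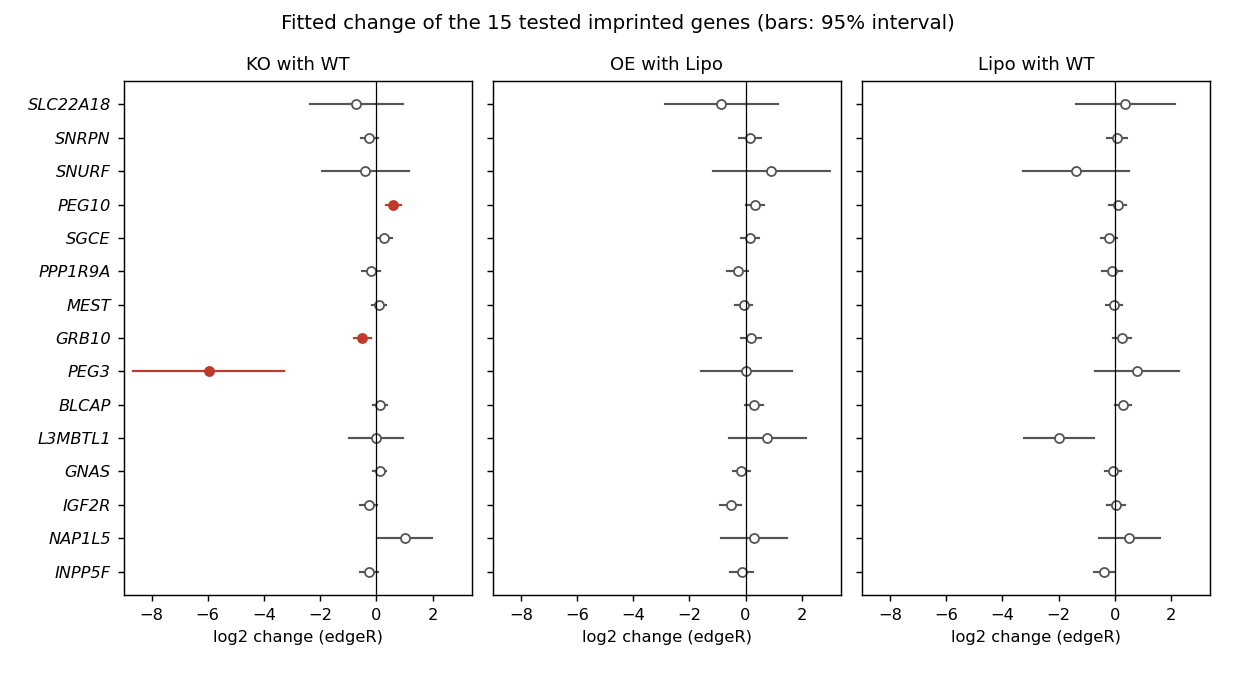
Fitted log2 change (edgeR) of the 15 tested imprinted genes in 3 comparisons, with bars for the 95% interval; filled red points passed at an adjusted p under 0.05 and open points did not. PEG10, GRB10 and PEG3 passed in KO with WT, and no gene passed in the other comparisons, which share WT or Lipo libraries; the PEG3 value in KO rests on 0 reads and is no measure of size.

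In OE compared with Lipo, which asks what added TET1 changes, 0 of the 15 genes passed edgeR's test, against 12.3% of all tested genes. At an unadjusted p under 0.05 there were 2, IGF2R and PEG10, and DESeq2 called 1, IGF2R. Groups did not overlap for 8 of the 15 genes, against 65.6% of all genes, and the median log2 change of the 15 was 0.15, against -0.0071 over all. IGF2R gave 225 and 214 CPM in Lipo and 146 and 158 CPM in OE. Both OE libraries were lower than every WT and Lipo library, WT standing at 192, 224 and 223 CPM. The log2 change was -0.53 (SE 0.17, edgeR adjusted p = 0.0578), just over the threshold. It passed without WT 1 (adjusted p = 0.0398), KO 1 (0.0448), KO 2 (0.0262) or KO 3 (0.0206). It did not pass without WT 2 (0.0839), WT 3 (0.0756), or, with 1 library left in an arm, Lipo 2 (0.241), Lipo 3 (0.188), OE 1 (0.304) or OE 2 (0.174), and over all 19 alternatives it ranged from 4.15e-09 to 0.304.

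PEG10 in OE had a log2 change of 0.33 over Lipo (SE 0.15, adjusted p = 0.188), and with WT as the control one of 0.43 (adjusted p = 0.0344). BLCAP stood at 42.9 and 40.4 CPM in Lipo and 50.1 and 52.9 CPM in OE, at a log2 change of 0.31 (adjusted p = 0.197). GRB10 stood at 23.4 and 22.2 CPM in Lipo and 25.5 and 27.04 CPM in OE, at a log2 change of 0.20 (adjusted p = 0.494). PEG3 had a log2 change of 0.03, with a 95% interval from -1.59 to 1.65. The genes on at high level, GNAS and MEST, had changes of -0.15 (interval -0.45 to 0.15) and -0.07 (interval -0.38 to 0.24).

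The KO effect less the OE effect, from 2 contrasts that share no library, was tested directly and passed for 2 of the 15 genes, against 16.6% of all tested genes. PEG3 had a difference with an adjusted p of 0.0181 by edgeR. Its KO side rests on 0 reads, and it passed the filter only through Lipo and OE. GRB10 differed by -0.70 (log2, SE 0.22, adjusted p = 0.042), from -0.50 in KO and 0.20 in OE. Leaving out any 1 of the Lipo or OE libraries lost both calls; such a fit leaves 1 library in that group, which is assumed to vary like the other groups, and calls over all genes drop from 2632 to between 1373 and 1532. The adjusted p of PEG3 was 0.0594 when Lipo 2 was left out, 0.0762 for Lipo 3, 0.0528 for OE 1 and 0.0523 for OE 2, and that of GRB10 was 0.126, 0.177, 0.113 and 0.162 in the same order. GRB10 was also lost without WT 2 (adjusted p = 0.0904) or WT 3 (0.091). PEG10 was above its control in both contrasts, and its difference was 0.27 (95% interval -0.15 to 0.70, adjusted p = 0.378).

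Lipo and WT carry the same treatment label, and their comparison shows how far libraries so labelled differ. By edgeR 0 of the 15 genes passed, against 3.7% of all tested genes, with 2 at an unadjusted p under 0.05 and 1 called by DESeq2, L3MBTL1. L3MBTL1 encodes a Polycomb-type reader of methylated histones. It gave 1.47, 2.02 and 2.67 CPM in WT and 0.708 and 0.319 CPM in Lipo, without overlap, at a log2 change of -1.98 (SE 0.58, edgeR adjusted p = 0.0763). OE stood at 1.23 and 0.552 CPM and KO at 1.90, 1.05 and 3.12, so all WT and KO libraries were above 1 CPM, both Lipo libraries were below it, and OE had 1 library on each side. The change was -2.67 without Lipo 2 (adjusted p = 0.194) and -1.53 without Lipo 3 (adjusted p = 0.506), fits in which Lipo is 1 library. BLCAP had a log2 change of 0.29 (adjusted p = 0.262). Of the 15 genes, 7 had groups that did not overlap, against 43.6% of all genes.

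The 19 genes that were not tested include the best-known imprinted growth genes. Of these, 12 had 0 reads in all 10 libraries: H19, KCNQ1OT1, CDKN1C and PHLDA2 at 11p15, NDN, MAGEL2 and MKRN3 in the Prader-Willi region at 15q11, DIO3 and MEG8 at 14q32, ZIM2, NNAT and ZDBF2. Another 7 had a few reads. IGF2 had 1, 1 and 0 in WT, 0, 2 and 9 in KO, and none in Lipo or OE, so that 9 of its 13 reads came from KO 3. It shares 73.7% of its exon bases on the same strand with another entry of that symbol and 20.9% with INS-IGF2, so its count depends on how shared reads were assigned. DIRAS3, a Ras-like growth suppressor gene, had 9 reads in all, the zinc finger gene PLAGL1 had 4, and the potassium channel gene KCNQ1, the Notch ligand homologue DLK1, RTL1 and MEG3 had 1 each. For a gene with 0 reads, a count of 3 over the group allows up to 0.0416 CPM in WT, 0.0420 in KO, 0.0653 in Lipo and 0.0714 in OE.

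At 11p15 a value of 0 cannot be read as silence, because genes that every cell uses were near 0 there too. MRPL23, a mitochondrial ribosomal protein gene 11 kb from H19, had 1 read in 10 libraries, and CARS1, the cysteinyl-tRNA synthetase gene 71 kb from PHLDA2, had 19. CTSD, 231 kb from H19, had 28135 reads, CD81, 227 kb from IGF2, had 28893 and TSSC4 had 3903. Beyond TSSC4, NAP1L4 had 171 reads and SLC22A18, a transporter gene tested here, 169. Over 221 ribosomal, proteasomal and tRNA synthetase genes, a list chosen after values were seen, 12 (5.43%) stayed under 1 CPM in all libraries, while the median gene had 19281 reads; RPS25 on chromosome 11 and SARS2 on chromosome 19 had 0. H19, IGF2, KCNQ1, KCNQ1OT1, CDKN1C and PHLDA2 are therefore only said to be listed at or near 0, and the cause was not tested.

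**Figure D4:**
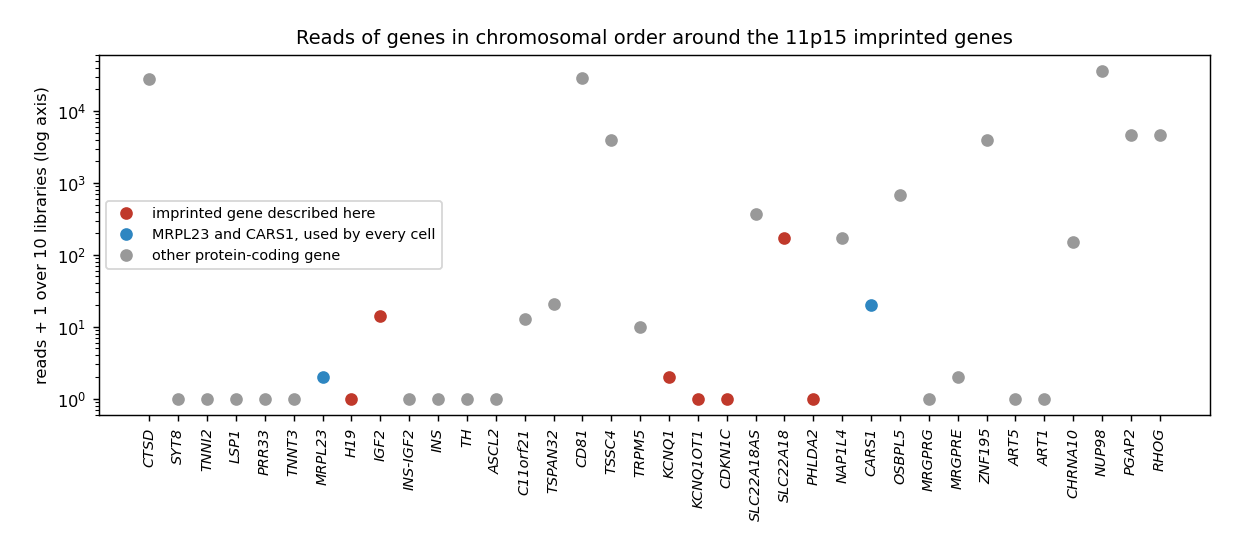
Reads over 10 libraries plus 1 (log axis) for genes in chromosomal order around the imprinted genes of 11p15, with those genes in red, MRPL23 and CARS1 in blue and other protein-coding genes in grey. H19, KCNQ1OT1, CDKN1C and PHLDA2 have 0 reads, MRPL23 has 1 and CARS1 19, while CTSD, CD81 and NUP98 have 28135, 28893 and 36087.

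Elsewhere, genes listed at or near 0 had expressed neighbours at varying distance. A value of 0 there is not read as silence either, because SARS2 on chromosome 19 and MRPS18B on chromosome 6 also had 0 reads. For DLK1, RTL1, MEG3 and MEG8 at 14q32 the nearest protein-coding gene on in all libraries was WDR25, 195 to 364 kb away at 3.77 to 9.66 CPM, and WARS1, 349 kb from DLK1, had 89470 reads. DIO3 lay 198 kb from PPP2R5C, which stood at 72.0 to 141 CPM. NNAT lies within BLCAP and had 0 reads while BLCAP held 33.3 to 52.9 CPM, and 85 of its exon bases overlap BLCAP on the opposite strand. PLAGL1 lay 30 kb from SF3B5, at 25.9 to 39.5 CPM, and DIRAS3 47 kb from WLS, at 87.6 to 151 CPM. ZDBF2 lay 112 kb from EEF1B2, at 2.08 to 4.53 CPM, and ZIM2 103 kb from ZNF835, at 1.91 to 6.06 CPM. NDN, MAGEL2 and MKRN3 had NIPA1 as their nearest such gene, 736 to 856 kb away at 1.56 to 2.90 CPM, with SNRPN over 1 Mb away on the other side.

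Other imprinted genes were counted from a second list of 67, of which 61 matched and 29 were tested. In KO 5 of 29 fell and 0 rose, where 12.6% of all tested genes were called in either direction, with a median log2 change of -0.13. ZNF597 is a maternally expressed zinc finger gene on chromosome 16. It held 268 reads in WT, or 3.25, 4.62 and 3.16 CPM, and 0 in all 3 KO libraries (edgeR adjusted p = 1.43e-06). Its WT mean was 87.4-fold above the level of 3 counts over KO, the error of that mean left out. Lipo stood at 2.50 and 3.24 CPM and OE at 5.97 and 4.60. OSBPL5, a lipid transfer gene at the edge of the 11p15 cluster, went from 4.50, 4.70 and 5.87 CPM in WT to 0.0882, 0.234 and 0.0433 in KO, a log2 change of -5.26 (SE 0.43, adjusted p = 1.16e-06). ZNF597 and OSBPL5 thus had 0 or nearly 0 reads in all KO libraries and reads in all others. How many of all tested genes share this was not counted, so it is not read as a trait of imprinted genes.

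SNHG14, the long host transcript that runs on from SNRPN, fell from 48.4 ± 2.20 to 34.3 ± 1.75 CPM in KO (log2 change -0.49, edgeR adjusted p = 0.0163). The KO libraries stood at 34.5, 32.5 and 36.0 CPM, and the wild-type-labelled Lipo libraries at 33.5 and 36.1. The KO level of SNHG14 was thus apart from WT but not from Lipo. From Lipo to OE SNHG14 fell from 34.8 ± 1.86 to 22.4 ± 2.48 CPM (-0.64, edgeR adjusted p = 0.014). TFPI2, a protease inhibitor gene near PEG10, fell in KO (log2 change -0.99, adjusted p = 9.37e-05) and rose in OE (1.08, adjusted p = 0.000244). The kinase gene RPS6KA2 fell in both, by 0.46 (adjusted p = 0.0481) and by 1.22 (adjusted p = 0.000343) on the log2 scale. In OE 2 of 29 rose and 3 fell, where 12.3% of all tested genes were called, the others being HM13 at 0.60 and COPG2, the gene next to MEST, at -0.55. In Lipo compared with WT 2 of 29 fell, ZNF331 and ATP10A, and 0 rose, where 3.7% of all tested genes were called.

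Of 28 regulators of imprints 23 were tested. In KO 1 fell and 1 rose, against 12.6% of all tested genes called. SMCHD1, which holds the inactive X and some imprinted clusters silent, went from 81.5, 62.4 and 63.8 CPM to 39.8, 33.7 and 19.3 CPM, a log2 change of -1.16 (SE 0.20, adjusted p = 0.00164). SETDB1, the histone H3 lysine methyltransferase that works with ZFP57 and TRIM28, rose from 41.3 ± 2.74 to 57.1 ± 10.5 CPM (0.47, adjusted p = 0.043). In OE, where 12.3% of all genes were called, TET1 itself and the zinc finger gene ZNF202 (0.68, adjusted p = 0.0435) rose and 0 fell, and in Lipo compared with WT, where 3.7% of all genes were called, the remodeller HELLS fell (-0.74, adjusted p = 0.0369).

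IGF2, IGF2R and GRB10 act on IGF signalling, and 14 of 21 partners of that pathway were tested. In KO 4 fell and 2 rose, where 12.6% of all tested genes were called. IGFBP3, the main carrier of IGFs in blood, fell from 248, 355 and 308 CPM in WT to 14.2, 10.98 and 13.9 CPM in KO, at a log2 change of -4.55 (SE 0.16, adjusted p = 2.34e-10). The carrier IGFBP4 (-1.29, adjusted p = 2.16e-05), the receptor substrate IRS2 (-1.10, adjusted p = 0.000973) and HMGA2 (-0.77, adjusted p = 0.00188), a chromatin architectural protein gene, also fell, and the IGF2-preferring carrier IGFBP6 rose (1.16, adjusted p = 0.00656). In OE compared with Lipo (12.3% of all genes called) 2 rose and 0 fell, IGFBP6 at 2.39 (edgeR adjusted p = 0.000117) and IGFBP3 at 0.73 (edgeR adjusted p = 0.0109). IGFBP3 stood at 163 and 170 CPM in Lipo and at 274 and 278 CPM in OE, which lies within the range of the WT libraries. In Lipo compared with WT (3.7% of all genes called), IGFBP3 (-0.87, adjusted p = 0.00745) and HMGA2 (-0.65, adjusted p = 0.034) fell.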

How the data were processed

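RNA was sequenced from 10 H441 libraries. The deposited values are whole-number counts per gene, not normalized. The submitters' processing notes list the GRCh38 build, featureCounts, edgeR, HISAT2 2.1.0 and FastQC without their roles; use of strand in counting is not given in the sources used here. Of 62710 entries 1 held no values and was left out, and 2 columns that matched no sample were not used. Genes passing filterByExpr on the 4 groups were scaled by TMM and fitted with edgeR 4.0.16 (R 4.3.3), robust quasi-likelihood, all 10 libraries in 1 fit, 6 residual degrees of freedom, two-sided, Benjamini-Hochberg over 15832 genes. CPM are TMM-scaled. Folds against 0 reads set the mean of the other group against 3 counts over the group with 0 reads, without the error of that mean. Alternatives were DESeq2 1.42.0, other scalings, filters, controls and fits, a replicate block and each library left out. The script was tested on simulated data. The lists and members were chosen with earlier results of these data known. All 34 members are named; of the other lists of imprinted genes, regulators and IGF partners, at most 5 passing genes per comparison with the smallest p are named, and neighbours and ubiquitous genes were added after values were seen. Positions and exon lengths are from GENCODE 29, promoters from RefSeq GRCh38.p14.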

Additional observations from a re-analysis of the deposited data

How the results depend on the processing

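Among imprinted genes, 3 were called in KO with WT; this was 1 with only the groups compared in the fit and 2 to 4 with each library left out in turn. In OE with Lipo 0 were called; this was 1 with DESeq2, 1 with no filter, 5 with only the groups compared, 5 with WT as control, 3 when WT and Lipo together were the control, and 0 to 1 with a library left out. In Lipo with WT 0 became 1 with DESeq2 and 1 with no filter, and stayed 0 with each library left out. For the KO effect minus the OE effect 2 became 1 with library size alone, with no filter and with the stricter filter, and was 0 to 2 with a library left out. The cause of these shifts was not tested. No single-gene result reversed its direction under any alternative run. Over all genes, KO with WT gave 1992 calls, but 1216 with only the groups compared and 1125 without WT 2; OE with Lipo gave 1950, but 5664 with only the groups compared, 3953 with WT as control and 673 without Lipo 3; Lipo with WT gave 586, but 992 with DESeq2, 1100 with no filter and 34 without Lipo 3. With the replicate block KO with WT gave 3 imprinted genes in the fit of all libraries and 2 of 14 in that of WT and KO alone. Calls over all genes were then 2874 and 3368. Same-numbered WT and KO libraries correlated at 0.328, 0.0577 and 0.185 in their deviations. Pairs with unlike numbers correlated at -0.238 to 0.092, and WT 2 correlated best with KO 3. Whether equal numbers mark a shared culture or batch was not tested, and the main fit holds no block. Depth limits the low genes: with 0 reads, levels under 0.0416 CPM in WT cannot be told from 0.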
